A study of Mus musculus with 237 samples.

Results

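The genes described here are 35 genes of glycolysis, pyruvate and lactate handling, and the response to low oxygen, out of the 55335 genes of a single-cell RNA count table from mouse embryonic skin. They are given by name, and each was found in the table by its Ensembl identifier. All 35 reached 1 CPM in the columns compared, where CPM is the rounded count of a gene divided by the total of its column and multiplied by 1000000. Glycolysis turns glucose into pyruvate in the cytoplasm, and lactate dehydrogenase turns pyruvate into lactate, which leaves the cell with a proton through monocarboxylate carriers. When oxygen is low, prolyl hydroxylases no longer mark the factor HIF-1 alpha for destruction, and the factor raises carriers, glycolytic enzymes and regulators of its own breakdown. Epidermis has no blood vessels of its own, and keratinocytes are known for a high rate of glycolysis.

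The study grew C57BL/6N embryos, wild type or with a CRISPR knockout of Trp63 (p63, a factor that stratified epithelia need), in surrogate ICR mothers, and took skin at E14.5. Single cells negative for propidium iodide, CD45, TER119 and CD140a were sorted, and each was made into its own full-length cDNA library without molecular identifiers. The labels describe 237 cells of 10 embryos, 66 cells of 3 wild-type embryos and 171 cells of 7 knockout embryos. The count table has 237 columns, of which 16 could be paired with a labelled cell, all of 1 wild-type embryo, WT01.

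Those 16 are 11 cells labelled WT basal layer, 4 labelled WT K17 high and 1 labelled WT intermediate layer. The other 221 columns form a pool that no file at hand maps to embryo or genotype, so no value from them can be assigned to a genotype and nothing was tested between genotypes. Column totals ran from 2702464 to 19197937 counts, with a median of 6938984, and 6997 to 13340 genes had a count. The columns were sorted into states by marker genes. Basal-keratin columns (54) had at least 300 CPM of Krt5 and of Krt14 and under 100 CPM of Krt8. Simple-keratin columns (66) had at least 100 CPM of Krt8 and of Krt18 and under 100 CPM of Krt5 and of Krt14. Collagen columns (79) had at least 100 CPM of Col1a1 and of Col3a1. Of the 54 basal-keratin columns 15 are labelled cells, 1 column met both the simple-keratin and the collagen rule, and 39 columns met none, the labelled intermediate cell among them. A state is a set of markers and not a genotype. Median totals were 7822728, 7277219 and 6094431 counts in the basal-keratin, simple-keratin and collagen columns. Intervals and limits below cover counting error only, and amplified copies of a molecule count more than once in such libraries.

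Markers that the state rules did not use were checked. Col17a1, which anchors basal cells, stood at 689.7 CPM in the summed basal-keratin columns and at 0.695 and 1.59 CPM in the simple-keratin and collagen columns. Trp63 transcript was at 553, 197 and 1.002 CPM. Pdgfra, which encodes the CD140a that the sort selected against, had a count in 78 of 79 collagen columns and stood at 261 CPM there. It was at 0.335 CPM in the basal-keratin columns.

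Promoter sequences are shown for 6 members, because these members carry the differences between states described further on or belong to the low-oxygen response. They are taken from RefSeq on the build GRCm38.p6 and cover 250 bases before to 50 bases after a start site. The capitals mark the core motifs ACGTG and GCGTG that HIF factors bind, read on both strands (CACGT and CACGC are the reverse strand), so that a CACGTG box counts on each strand. Slc2a1 lies on the plus strand at chr4:119108495-119108794 and holds 2 cores. Promoter 2 of Hk1 lies on the minus strand at chr10:62340372-62340671 and holds 5, while its promoter 1, not shown, holds 0. Hk2 lies on the minus strand at chr6:82774405-82774704 and holds 2. Promoter 1 of Ldha lies on the plus strand at chr7:46845554-46845853 and holds 7, while its promoter 2, not shown, holds 2. Slc16a1 lies on the plus strand at chr3:104638414-104638713 and holds 5. Bnip3 lies on the minus strand at chr7:138909457-138909756 and holds 5.
Slc2a1: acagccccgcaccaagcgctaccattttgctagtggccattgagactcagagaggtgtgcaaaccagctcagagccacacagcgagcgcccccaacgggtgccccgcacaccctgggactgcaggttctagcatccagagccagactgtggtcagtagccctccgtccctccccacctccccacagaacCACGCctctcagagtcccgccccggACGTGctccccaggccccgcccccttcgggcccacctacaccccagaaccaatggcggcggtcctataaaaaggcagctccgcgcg
Hk1: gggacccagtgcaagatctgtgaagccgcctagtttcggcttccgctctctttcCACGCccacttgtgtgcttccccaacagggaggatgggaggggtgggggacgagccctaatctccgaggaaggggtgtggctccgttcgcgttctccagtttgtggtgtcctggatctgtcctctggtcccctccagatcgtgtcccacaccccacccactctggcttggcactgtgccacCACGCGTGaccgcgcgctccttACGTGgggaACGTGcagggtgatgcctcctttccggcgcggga
Hk2: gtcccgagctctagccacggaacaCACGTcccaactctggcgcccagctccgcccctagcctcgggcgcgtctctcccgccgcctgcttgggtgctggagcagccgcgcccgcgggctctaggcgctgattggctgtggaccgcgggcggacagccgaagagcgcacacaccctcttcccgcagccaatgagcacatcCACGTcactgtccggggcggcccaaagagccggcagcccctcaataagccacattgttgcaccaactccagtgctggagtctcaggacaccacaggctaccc
Ldha: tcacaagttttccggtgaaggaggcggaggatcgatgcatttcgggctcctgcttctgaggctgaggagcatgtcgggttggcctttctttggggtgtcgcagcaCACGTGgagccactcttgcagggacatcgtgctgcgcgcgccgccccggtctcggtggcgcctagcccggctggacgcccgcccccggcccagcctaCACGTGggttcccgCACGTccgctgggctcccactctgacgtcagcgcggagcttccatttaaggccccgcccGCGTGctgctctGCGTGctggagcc
Slc16a1: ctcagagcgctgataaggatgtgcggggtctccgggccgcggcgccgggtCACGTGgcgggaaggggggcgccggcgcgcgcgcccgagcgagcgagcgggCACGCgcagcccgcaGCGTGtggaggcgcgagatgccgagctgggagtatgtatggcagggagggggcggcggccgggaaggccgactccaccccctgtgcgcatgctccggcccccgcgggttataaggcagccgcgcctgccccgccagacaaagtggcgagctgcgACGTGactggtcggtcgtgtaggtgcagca
Bnip3: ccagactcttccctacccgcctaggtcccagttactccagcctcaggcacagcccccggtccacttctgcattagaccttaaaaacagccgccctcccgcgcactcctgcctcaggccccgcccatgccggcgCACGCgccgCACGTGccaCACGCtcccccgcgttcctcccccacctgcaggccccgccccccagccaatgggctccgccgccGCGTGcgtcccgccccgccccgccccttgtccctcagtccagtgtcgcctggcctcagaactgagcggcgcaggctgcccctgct

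Promoters were matched for 32 of the 35 members, 47 promoters in all. Either core stood in 37 of these 47 promoters (78.7%), against 43.8% of all 32851 promoters of the same length. By gene, 29 of 32 members had a core in at least 1 promoter, 90.6% against 46.7% of 27025 genes. ACGTG was in 51.1% of the members' promoters and 19.6% of all, and GCGTG in 57.4% and 32.4%. Gpi1, Tpi1 and Eno2 were the 3 matched members with neither core in the window. Many members are on the list as known HIF targets, so these shares describe the list, and a match of letters is not a bound site.

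In each column the 35 members together took a few percent of the reads at most. Their summed level in the basal-keratin columns ran from 9262 to 27985 CPM with a median of 15854 CPM, or 1.59% of the column. The simple-keratin columns ran from 1433 to 33026 CPM with a median of 14618 CPM. In the collagen columns the range was 4217 to 26206 CPM and the median 7897 CPM. The median collagen column thus held the least, and the ranges of the 3 states overlap. Per column a median of 26 members in the basal-keratin, 24 in the simple-keratin and 24 in the collagen columns reached 10 CPM. On the scale of CPM per kilobase of exon, which allows genes to be compared, Ldha came first in each state among the genes' own identifiers, at 789.8, 625 and 456. Pkm came next in the basal-keratin columns at 673 per kilobase, and Bsg in the simple-keratin and collagen columns at 504 and 356. Gapdh has no place in this order, because its near copies hold many times its own count.

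**Figure D1:**
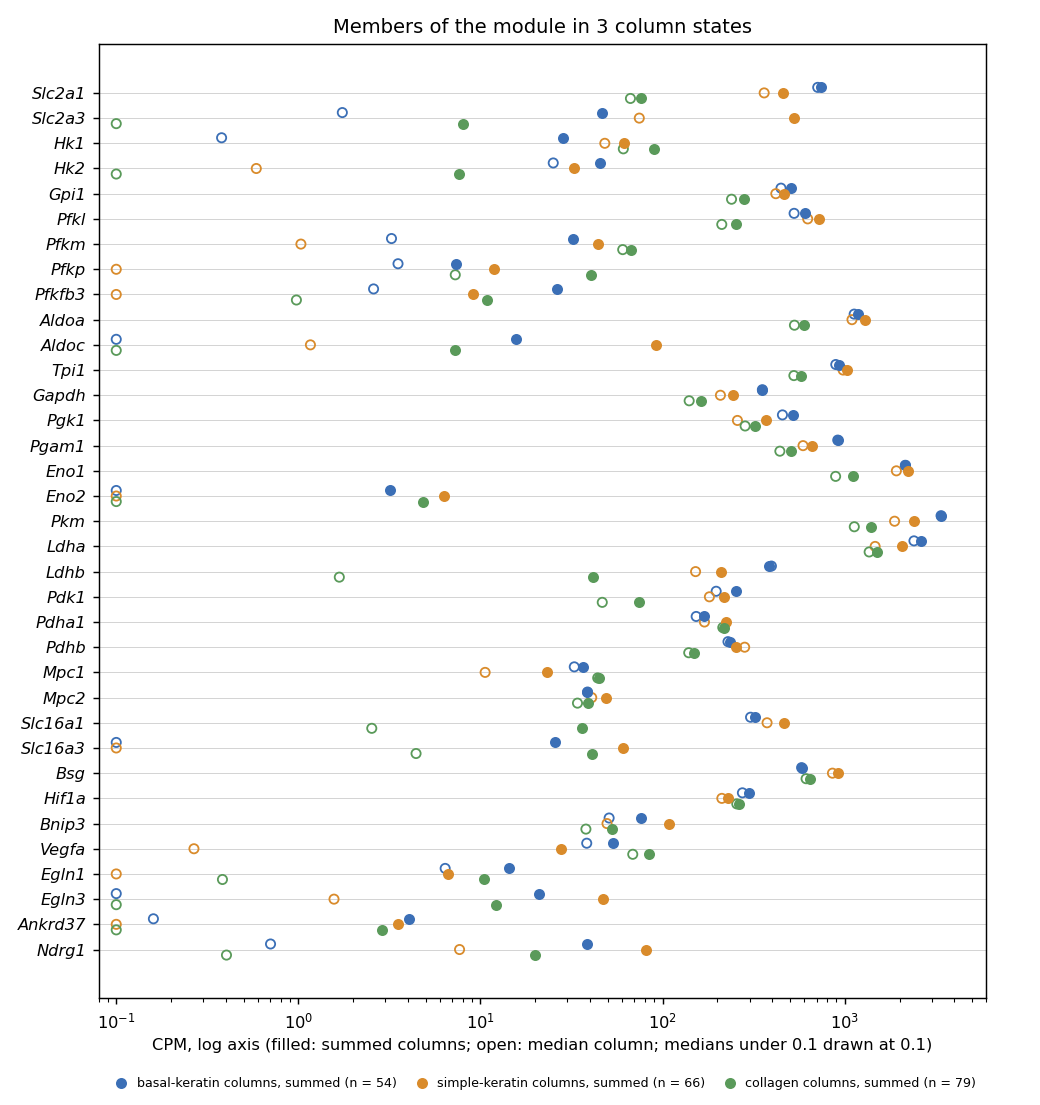
CPM (log axis) of each of the 35 members in the summed columns of a state (filled points) and in the median column (open points), for 54 basal-keratin, 66 simple-keratin and 79 collagen columns. Filled and open points lie close together for the abundant enzymes and far apart for members such as Slc2a3, Aldoc and Egln3, whose median column is at or near 0 in at least 1 state.

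Differences between states are given as log2 ratios of the summed columns with 1 CPM added to both sides, and a member is called past 2-fold. Between simple-keratin and basal-keratin columns 6 of the 35 members were higher past 2-fold, where 17.8% of 15532 genes were, and 2 were lower, where 12.1% were. The 6 higher members were Slc2a3, Hk1, Aldoc, Slc16a3, Egln3 and Ndrg1, and the 2 lower ones Pfkfb3 and Egln1. The Slc16a3 call rests on high columns, since its median was 0 CPM in both states and so inside 2-fold. It reached 10 CPM in 18 simple-keratin and 17 basal-keratin columns. The members' median log2 ratio was 0.10, against 0.05 for all genes. With size factors these medians were 0.32 and 0.25. The share of members higher, 17.1%, is near that of all genes, and the share lower, 5.71%, is below it, so the list as a whole did not stand out upward here. The median has no fixed direction either, since it was -0.12 with the median column of each state in place of the sum and -0.04 without the labelled columns.

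Between collagen and basal-keratin columns 3 members were higher past 2-fold, where 18.5% of 15649 genes were, and 11 were lower, where 18.2% were. As shares of the 35 these are 8.57% and 31.4%. The median log2 ratio was -0.74, against -0.21 for all genes. Hk1, Pfkm and Pfkp were the 3 higher, Pfkm close to the limit at 1.03 and inside 2-fold at 0.88 without the labelled columns. Slc2a1, Slc2a3, Hk2, Pfkl, Pfkfb3, Aldoc, Gapdh, Pkm, Ldhb, Pdk1 and Slc16a1 were the 11 lower. Without the labelled columns Aldoc was inside 2-fold at -0.45, while Gpi1, Aldoa, Eno1, Egln3 and Ndrg1 were past it, 15 lower in all. These counts depend on the scale. Median-of-ratios size factors moved the median of all genes from -0.21 to 0.16 and the members' median to -0.36. On that scale 6 members were lower, Slc2a1, Slc2a3, Hk2, Ldhb, Pdk1 and Slc16a1, and 5 higher, with Slc16a3 and Vegfa added. The share of all genes called then became 11.7% lower and 23.6% higher. The members' median lay below that of all genes on both scales.

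Between collagen and simple-keratin columns 2 members were higher past 2-fold, where 17.7% of 15978 genes were, and 12 were lower, where 23.3% were. As shares these are 5.71% and 34.3%. The median log2 ratio was -0.59, against -0.22 for all genes. Pfkp and Vegfa were higher. The 12 lower members were Slc2a1, Slc2a3, Hk2, Pfkl, Aldoa, Aldoc, Ldhb, Pdk1, Slc16a1, Bnip3, Egln3 and Ndrg1. Bnip3, at -1.04, was inside 2-fold with near copies added (-0.94), without the highest columns (-0.96) and with size factors (-0.84). Aldoa, at -1.12, was also inside 2-fold with size factors. With size factors the counts were 3 higher and 10 lower, where 20.5% and 19.8% of all genes were, at a median of -0.39 against -0.03 for all genes. The comparisons share their columns, so they are not independent of each other. In none of them did every column of a state lie above every column of another for any member. How many of all genes parted the columns in this way was not counted, so this is no trait of the members.

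**Figure D2:**
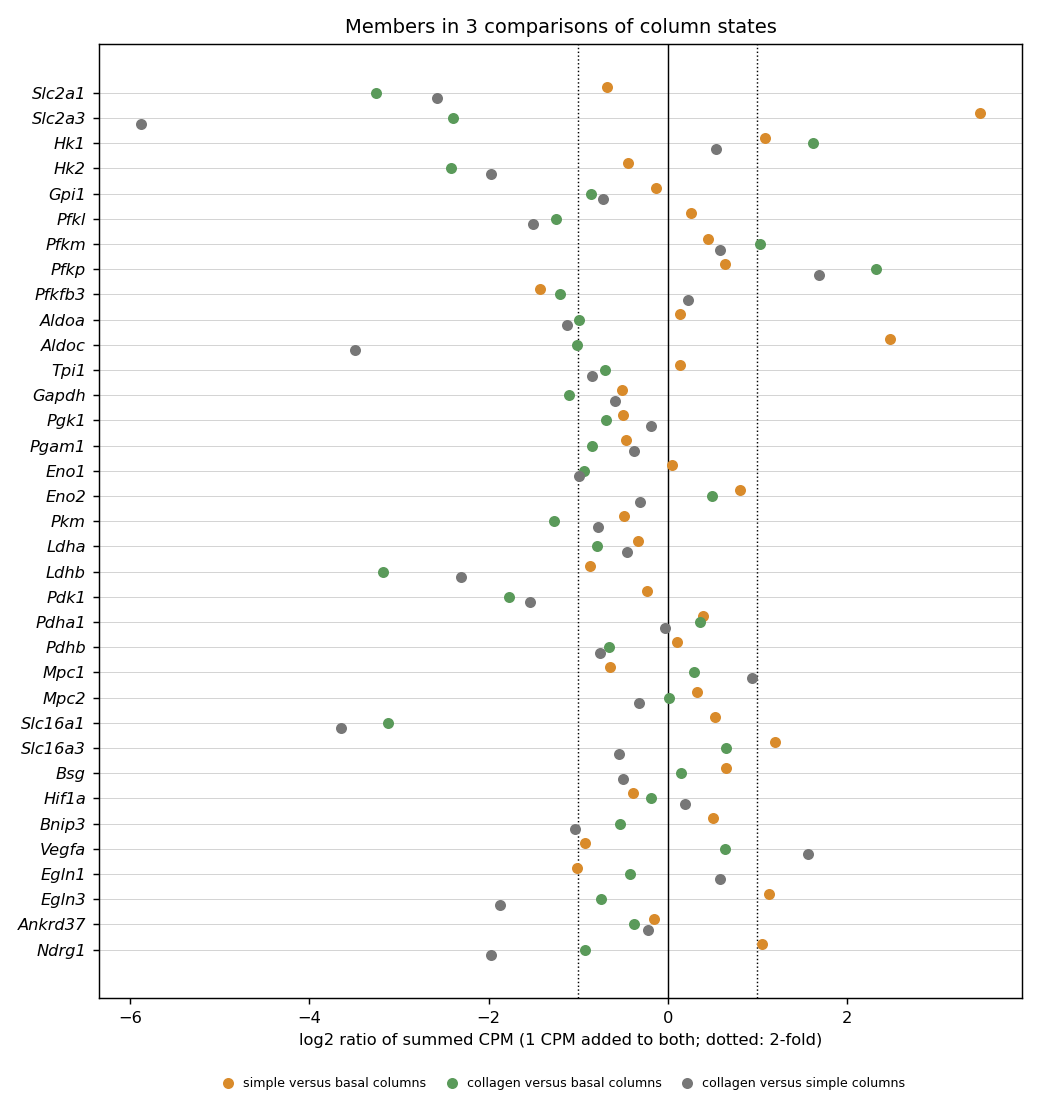
Log2 ratio of summed CPM (1 CPM added) for each of the 35 members in 3 comparisons of column states, with dotted lines at 2-fold. The members run from 3.49 for Slc2a3 between simple-keratin and basal-keratin columns to -5.88 for the same gene between collagen and simple-keratin columns.

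Glucose enters through facilitative carriers. Slc2a1 encodes GLUT1, the widespread carrier of high affinity. Its level in the basal-keratin columns ran from 104 to 1533 CPM with a median of 711 CPM. In the simple-keratin columns the range was 1.23 to 2199 CPM and the median 361 CPM. Collagen columns ran from 0 to 462 CPM with a median of 66.6 CPM. The lowest basal-keratin column lay above the median collagen column, although the ranges overlap. Summed, the collagen columns held 76.5 CPM against 739 CPM, 9.66-fold less than the basal-keratin columns (log2 -3.26, or -2.85 with size factors).

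Slc2a3 encodes GLUT3, a carrier of still higher affinity best known from neurons and the early embryo. It was absent or at a trace in most basal-keratin columns, from 0 to 297 CPM with a median of 1.74 CPM. In the simple-keratin columns it ran from 0 to 6653 CPM with a median of 74.5 CPM. In the collagen columns the median was 0 and the highest value 219.8 CPM. At least 10 CPM was reached in 21 of 54 basal-keratin, 41 of 66 simple-keratin and 7 of 79 collagen columns. The simple-keratin columns thus hold both the highest values and columns at 0. The summed level was 11.4-fold that of the basal-keratin columns (log2 3.49) and 66.3-fold that of the collagen columns. A single column gave 23.5% of the simple-keratin count, and with the highest column of each state left out the log2 ratio to the basal-keratin columns was 3.38.

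Taken as shares of reads, Slc2a1 made up 94.1% of the reads of the carrier pair in the basal-keratin columns, 46.5% in the simple-keratin and 90.5% in the collagen columns. Such shares are of reads and not of molecules, because the 2 genes differ in length, so they are compared only between groups of columns. Per column the Slc2a1 share in the simple-keratin state ran from 0.394 to 100% with a median of 79.8%, well above the summed share, since few columns with much Slc2a3 weigh heavily in the sum. Slc2a1 gave over 50% of the pair's reads in 54 of 54 basal-keratin and 46 of 66 simple-keratin columns. Both carriers reached 10 CPM together in 21 basal-keratin, 39 simple-keratin and 5 collagen columns, and Slc2a1 alone did in 33, 22 and 48. Slc2a3 alone did in 0, 2 and 2 columns. At 10 CPM, Slc2a3 was thus seldom found without Slc2a1 in the keratin states. Presence at this level does not tell which carrier led, and Slc2a1 did not lead in every simple-keratin column.

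In the labelled cells the pair divided differently. The 11 basal-layer cells held Slc2a1 from 104 to 734 CPM with a median of 346 CPM, and the 4 K17 high cells held 873, 251, 563 and 549 CPM. Slc2a3 ran from 0 to 297 CPM in the basal-layer cells with a median of 117 CPM and a count in 9 of 11. It was 0 in 3 of the 4 K17 high cells and 0.315 CPM in the other, and 0 in the intermediate cell. The K17 high cells thus lie inside the basal-layer range, since 2 basal-layer cells were also at 0. The summed ratio of basal layer to K17 high was 1472 with a counting interval of 407 to 12154, on 2 counts in the K17 high cells. Against the intermediate cell the basal layer was at least 277-fold higher, taken over its 3-count limit. The share of Slc2a1 in the pair was 79.8% in the basal-layer cells (exact binomial 95% interval 79.4 to 80.1%), 99.99% in the K17 high cells and 100% in the intermediate cell. In the sums the labelled basal-layer cells differed from the 39 basal-keratin columns with no label, where Slc2a3 was at 36.3 CPM and Slc2a1 at 841 CPM, against 101 and 397 CPM, although the Slc2a1 shares of single columns overlap (55.1 to 100% labelled, 67.6 to 100% with no label).

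**Figure D3:**
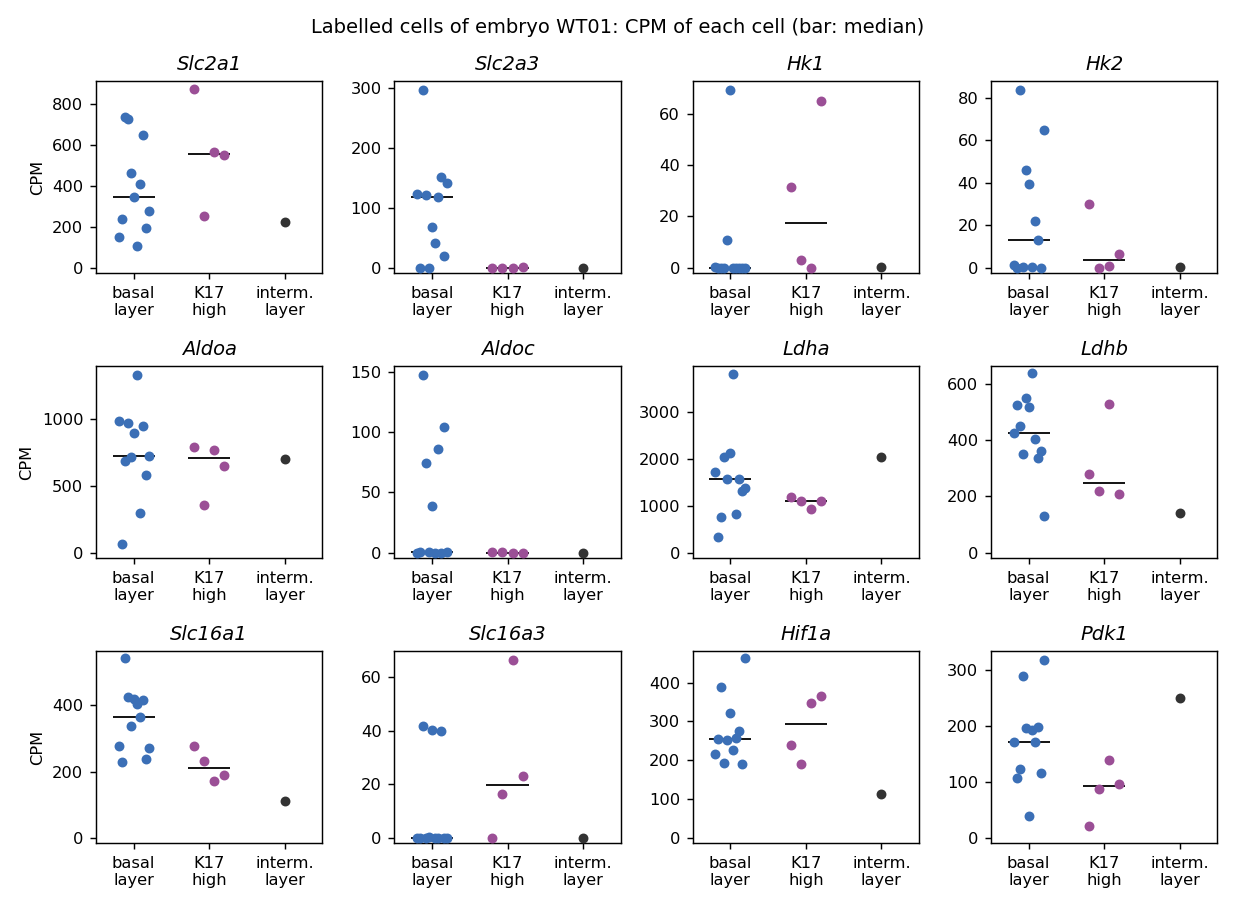
CPM of 12 members in each of the 16 labelled cells of embryo WT01, by label (11 basal layer, 4 K17 high, 1 intermediate layer), with a bar at the median. Slc2a3 and Aldoc are at or near 0 in the K17 high and intermediate cells, and in part of the basal-layer cells too. Slc2a1, Aldoa and Hif1a also overlap between basal-layer and K17 high cells.

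Hexokinases trap glucose by adding a phosphate. Hk1 encodes the form held at mitochondria in most adult tissues. Hk1 had a median of 0.379 CPM in the basal-keratin columns with a highest value of 193 CPM, and reached 10 CPM in 20 of 54. In the simple-keratin columns the median was 48.1 CPM, the highest value 473 CPM, and 37 of 66 reached 10 CPM. In the collagen columns these were 60.9 CPM, 419 CPM and 57 of 79. Each state also held columns at 0. Hk1 was 3.15-fold higher in the collagen than in the basal-keratin columns (log2 1.62, or 2.02 with size factors). Its simple-keratin log2 ratio of 1.08 fell to 0.81 without the labelled columns, inside 2-fold.

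Hk2 encodes the form that insulin and HIF raise. It ran the other way, with a median of 25.1 CPM and a highest value of 446 CPM in the basal-keratin columns. The simple-keratin median was 0.587 CPM and the highest value 258 CPM. The collagen median was 0 and the highest value 68.95 CPM. At least 10 CPM was found in 32 of 54, 20 of 66 and 16 of 79 columns. Hk2 was 5.93-fold lower in the collagen than in the basal-keratin columns.

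The share of Hk2 in the reads of Hk1 and Hk2 was 61.4% in the basal-keratin, 34.8% in the simple-keratin and 7.85% in the collagen columns. Median shares per column were 86.5, 12.9 and 0.0381%, in the same order. The shares were split within a state. At most 10% of the reads were Hk2 in 48 of 66 collagen columns with 10 counts of the pair, and at least 90% were in 5. In the basal-keratin state 22 of 46 columns held at least 90% Hk2 and 7 at most 10%. Across the 54 basal-keratin columns the rank correlation of Hk1 with Hk2 was -0.02, a description that leaves differences in column depth in place. Both genes missed 10 CPM in 16 of 54 basal-keratin, 24 of 66 simple-keratin and 18 of 79 collagen columns.

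Among the labelled cells Hk1 had a count in 3 of 11 basal-layer cells, the highest at 69.5 CPM. The K17 high cells held 31.3, 3.14, 0 and 65.2 CPM of Hk1. Hk2 ran from 0 to 83.8 CPM in the basal-layer cells with a median of 12.9 CPM, and was 30.04, 0, 0.8903 and 6.303 CPM in the K17 high cells. The 2 labels overlap for both genes. The Hk2 share of reads was 79.1% (77.6 to 80.6%) in the basal-layer and 28.1% (25.2 to 31.1%) in the K17 high cells. K17 high cell 1 gave 81.1% of the Hk2 count there, and the median share over the 3 K17 high cells with 10 counts of the pair was 8.81%. The intermediate cell had 0.243 CPM of each gene, on 2 counts apiece. Basal layer over intermediate was 104 for Hk2 with a counting interval of 28.7 to 859. For Hk1 no fold is drawn, since 1 basal-layer cell gave 83.6% of the count and the log2 ratio of -2.62 became 0.31 with the median of the cells.

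Gpi1 encodes the isomerase that makes fructose phosphate. It had medians of 447, 418 and 239 CPM in the basal-keratin, simple-keratin and collagen columns, within 2-fold of one another in the sums. Phosphofructokinase, the committed step, has 3 genes. Pfkl, the liver form, ran from 59.4 to 1578 CPM in the basal-keratin columns with a median of 527 CPM. Its simple-keratin median was 626 CPM and its collagen median 211 CPM, with ranges of 1.304 to 1701 and 0 to 802 CPM. Pfkl was lower in the collagen columns by log2 -1.25 against the basal-keratin state, which became -0.84 with size factors.

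Pfkm, the muscle form, went the other way. Its medians were 3.25, 1.03 and 60.4 CPM, and 24 of 54, 25 of 66 and 52 of 79 columns reached 10 CPM. The platelet form Pfkp had medians of 3.52, 0 and 7.27 CPM and summed levels of 7.305, 11.9 and 40.5 CPM. A single column gave 36.03% of the collagen count of Pfkp, and without the highest column of each state the log2 ratio to the basal-keratin columns was 2.02 in place of 2.32. Pfkp also shares transcript sequence with the overlapping gene Pitrm1, which held 186, 97.2 and 213 CPM, many times the count of Pfkp. With those reads added the log2 ratio of collagen to basal-keratin columns was 0.39, so this difference is uncertain, and that of collagen to simple-keratin columns was 1.21, still past 2-fold. The share of Pfkl in the reads of the 3 genes was 93.8, 92.8 and 70.1% in the basal-keratin, simple-keratin and collagen columns, and that of Pfkm 5.03, 5.705 and 18.6%. Over 50% of these reads were Pfkl in 54 of 54, 64 of 66 and 67 of 79 columns, so Pfkl led in most columns of each state.

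Pfkfb3 encodes an enzyme that makes a sugar phosphate outside the main chain, which activates phosphofructokinase. Its summed level was 26.2, 9.15 and 10.8 CPM, and 20 of 54, 11 of 66 and 23 of 79 columns reached 10 CPM. It was thus highest in the basal-keratin state and at 0 in many columns of each. The labelled cells held 275 CPM of Pfkl (95% Poisson interval 272 to 279) in the basal layer, 313 CPM in the K17 high cells and 482 CPM in the intermediate cell. Pfkfb3 had a count in 10 of 11 basal-layer cells, up to 86.7 CPM. It was 0 in 3 of 4 K17 high cells and 6.12 CPM in K17 high cell 1.

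**Figure D4:**
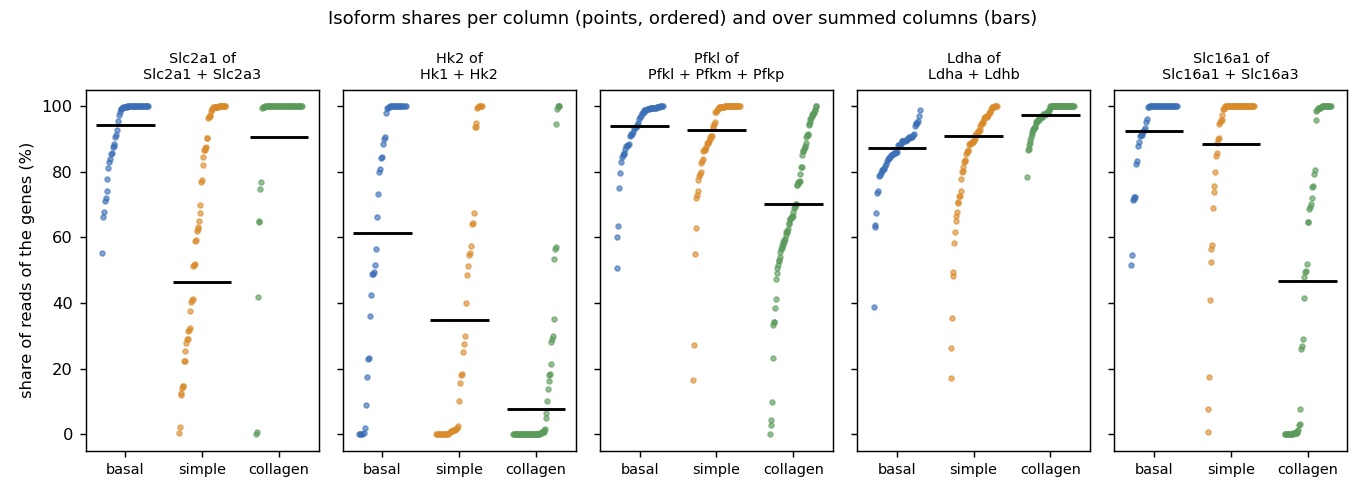
Share of reads (%) of 1 gene among its isoform genes in each column with at least 10 counts of them (points, ordered within a state) and over the summed columns (bars), for glucose carriers, hexokinases, phosphofructokinases, lactate dehydrogenases and lactate carriers. The Hk2 bars stand at 61.4, 34.8 and 7.85% and the Slc16a1 bars at 92.5, 88.4 and 46.6% in basal-keratin, simple-keratin and collagen columns.

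Aldolase splits fructose bisphosphate and opens the lower steps of the chain. Aldoa, the main aldolase, had medians of 1127, 1096 and 529 CPM in the basal-keratin, simple-keratin and collagen columns. A second Ensembl identifier with the symbol Aldoa stayed at or under 1.37 CPM in each state. Aldoc, the aldolase best known from brain, reached 10 CPM in 13 of 54, 31 of 66 and 1 of 79 columns. Its median was 1.16 CPM in the simple-keratin columns with a highest value of 479 CPM, and the summed level was 5.88-fold that of the basal-keratin columns (log2 2.48). In the collagen state 98.7% of its count came from 1 column, the one that also met the simple-keratin rule. Without that column the log2 ratio of collagen to simple-keratin columns was -6.33 in place of -3.50. Aldoc was thus present in part of the simple-keratin columns and all but absent from the other collagen columns.

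In the labelled cells Aldoc was above 10 CPM in 5 of 11 basal-layer cells, with a highest value of 147 CPM. The K17 high cells held 0.292, 0.285, 0 and 0 CPM. It was 0 in the intermediate cell, so the summed basal layer was at least 115-fold higher, taken over the 3-count limit of that cell. This fold rests on part of the cells, since the median basal-layer cell held 0.257 CPM, below that limit of 0.364 CPM. With the median of the cells the difference lay inside 2-fold. Aldoa had a count in every labelled cell. It was 793, 355, 769 and 645 CPM in the K17 high cells and 65.5 to 1331 CPM in the basal layer. The share of Aldoa in the reads of the aldolase pair was 94.7% in basal-layer and 99.98% in K17 high cells, and 98.7, 93.4 and 98.8% in the basal-keratin, simple-keratin and collagen columns.

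Tpi1 encodes the isomerase of the 3-carbon sugars. It had medians of 893, 979.8 and 526 CPM. Gapdh encodes the dehydrogenase that follows, and served as the reference gene of the qPCR screen of the study's cDNA. Its own identifier had medians of 353, 208 and 139.9 CPM, with ranges of 166 to 485, 33.9 to 642 and 73.3 to 419 CPM. These values may understate the gene. The table holds 101 near copies of Gapdh that share stretches of 50 bases with its transcript, and together they held 4133, 2909 and 2062 CPM in the summed columns. Of the nonzero Gapdh values 93.7% were fractions. With the copies added, the log2 ratios were -0.51 for simple-keratin and -1.01 for collagen against basal-keratin columns, close to the -0.52 and -1.11 of the gene alone. Gapdh was therefore not even across the states on this scale, and with size factors it was still lower in both (-0.30 and -0.70).

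Pgk1, the kinase that makes the pathway's first ATP, had medians of 455, 258 and 284 CPM. Pgam1, the phosphoglycerate mutase, had 915, 590.2 and 440.4 CPM. Eno1, the general enolase, had 2152, 1921 and 891 CPM. All 3 were within 2-fold in the sums of every pair of states. Near copies of Eno1, mainly Eno1b and Gm4735, held 187, 189 and 94.5 CPM in these states, a small part of its reads. Eno2, the neuronal enolase, had a count in 7 of 54, 7 of 66 and 14 of 79 columns and so was rare throughout. Eno1 gave 99.9, 99.7 and 99.6% of the enolase reads.

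Pkm, the pyruvate kinase of most non-liver tissues, was an abundant member. It ran from 1395 to 6285 CPM there with a median of 3380.3 CPM. The simple-keratin median was 1878 CPM and the collagen median 1128 CPM, with highest values of 5785 and 4234 CPM. The lowest basal-keratin column of Pkm stood above the median collagen column. The log2 ratio of collagen to basal-keratin columns was -1.27, inside 2-fold with size factors at -0.86. Counts per gene cannot tell the M1 and M2 transcripts of Pkm apart.

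In the basal-layer cells Eno1 ran from 1316 to 2575 CPM, and the K17 high cells held 1346, 1444, 2248 and 1284 CPM. Pkm ran from 1395 to 4081 CPM in the basal layer and stood at 2521, 3474, 3009 and 2817 CPM in the K17 high cells. Both genes overlap between the labels. In the intermediate cell Eno1 was 2197 and Pkm 1948 CPM, within the basal-layer range, whereas Gapdh at 104 CPM lay below all 11 basal-layer cells, of which the lowest held 204 CPM. With its copies added Gapdh was lower there by log2 -1.68.

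At the fate of pyruvate, Ldha encodes the lactate dehydrogenase subunit of muscle and of glycolytic tissue. Ldha ran from 331 to 4941 CPM in the basal-keratin columns with a median of 2399 CPM. The medians were 1469 CPM in the simple-keratin and 1362 CPM in the collagen columns. Ldhb encodes the heart subunit, and its medians were 396, 152 and 1.68 CPM. Ldhb reached 10 CPM in all 54 basal-keratin columns, in 58 of 66 simple-keratin and in 39 of 79 collagen columns. The collagen state thus kept Ldha and largely lacked Ldhb, although the highest collagen column held 541 CPM and overlaps the others. Ldhb was 9.24-fold lower in the collagen than in the basal-keratin columns (log2 -3.18, or -2.77 with size factors), while Ldha differed by log2 -0.79.

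The share of Ldha in the reads of the pair was 87.3, 90.8 and 97.3% in the basal-keratin, simple-keratin and collagen columns. It was at least 90% in 15 of 54, 31 of 66 and 73 of 79 columns. In the labelled cells it was 78.7% (78.5 to 78.9%) in the basal layer, 76.6% (76.2 to 77.01%) in the K17 high cells and 93.6% in the intermediate cell. Ldha itself stood at 1181, 1093, 929 and 1106 CPM in the K17 high cells, inside the basal-layer range of 331 to 3808 CPM. The 39 basal-keratin columns with no label held 3009 CPM of Ldha against 1576 CPM in the labelled basal layer, in the sums.

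Pdk1 encodes the kinase that switches off pyruvate dehydrogenase, and is a known HIF target. Its medians were 197, 181 and 46.6 CPM with highest values of 667, 747 and 383 CPM. Summed, Pdk1 was 3.44-fold lower in the collagen than in the basal-keratin columns and 2.92-fold lower than in the simple-keratin columns. Pdha1, a subunit of pyruvate dehydrogenase, had medians of 153, 169.7 and 214 CPM. Pdhb, the partner subunit, had 229, 282 and 139 CPM. Mpc1 and Mpc2 form the carrier that takes pyruvate into mitochondria. Mpc1 had medians of 32.7, 10.6 and 44.02 CPM, and a pseudogene and an overlapping transcript held as many reads again, 36.3 CPM in the basal-keratin columns, so its level is uncertain. Mpc2 had 38.7, 40.8 and 34.1 CPM. The dehydrogenase subunits and the mitochondrial carrier stayed within 2-fold across the states in the sums, unlike the kinase Pdk1. Mpc1 passed it between collagen and simple-keratin columns with size factors (log2 1.14), with near copies added (1.10) and without the highest column of each state (1.08).

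Lactate leaves through monocarboxylate carriers. Slc16a1 encodes MCT1, a carrier that works in both directions. It had a median of 304 CPM in the basal-keratin columns, from 1.06 to 739 CPM. In the simple-keratin columns the median was 375 CPM, from 0.483 to 2446 CPM. The collagen median was 2.53 CPM and the highest collagen column held 237 CPM, below the median of either keratin state. Summed levels were 8.904-fold lower than in the basal-keratin and 12.8-fold lower than in the simple-keratin columns (log2 -3.12 and -3.65, or -2.72 and -3.44 with size factors).

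Slc16a3 encodes MCT4, the lactate exporter of glycolytic cells and a HIF target. It reached 10 CPM in 17 of 54, 18 of 66 and 38 of 79 columns, with medians of 0, 0 and 4.43 CPM. The highest columns held 301, 621 and 543 CPM. Slc16a3 was therefore found in part of each state. The share of Slc16a1 in the reads of both carriers was 92.5, 88.4 and 46.6%. In the collagen columns 18 had 10 CPM of both carriers, 20 of Slc16a1 alone, 20 of Slc16a3 alone and 21 of neither. In the basal-keratin columns none had Slc16a3 alone. Bsg encodes basigin, the chaperone that both carriers need at the membrane, and its medians of 579.6, 856 and 614 CPM stayed within 2-fold. The collagen columns thus held the chaperone at a level near that of the keratin states with far fewer reads of MCT1.

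By label, Slc16a1 ran from 229 to 541 CPM in the basal layer with a median of 366 CPM, and was 277, 232, 173 and 188 CPM in the K17 high cells. In the intermediate cell it was 112 CPM, below all 11 basal-layer cells. Slc16a3 reached 10 CPM in 3 of 11 basal-layer cells and in 3 of 4 K17 high cells, at 16.5, 66.3 and 23.01 CPM. The highest basal-layer value was 41.8 CPM, so the labels overlap. The intermediate cell had no count of Slc16a3.

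Hif1a encodes HIF-1 alpha, which is set mainly by protein breakdown, so its transcript says little of the factor's activity. Its medians were 274, 211 and 255 CPM in the basal-keratin, simple-keratin and collagen columns, and no pair of states differed past 2-fold in the sums. In the labelled cells it ran from 190.2 to 463 CPM in the basal layer, 189.5 to 367 CPM in the K17 high cells and 112 CPM in the intermediate cell, which lay below all 11 basal-layer cells. Egln1 encodes PHD2, the hydroxylase that marks HIF-1 alpha. It reached 10 CPM in 26 of 54, 11 of 66 and 20 of 79 columns, and its simple-keratin log2 ratio to the basal-keratin columns was -1.01, inside 2-fold with size factors at -0.81. Egln3 encodes PHD3, a hydroxylase that HIF itself raises. It reached 10 CPM in 19, 31 and 21 columns of the same states, with highest values of 148, 359 and 179 CPM. The 2 hydroxylase genes thus leaned apart in the simple-keratin columns, Egln1 down and Egln3 up (log2 1.13, or 0.77 without the labelled columns).

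Of the other targets, Vegfa encodes the growth factor of blood vessels. Vegfa was found in 72 of 79 collagen columns at 10 CPM or more, with a median of 68.6 CPM and a highest value of 258 CPM. The basal-keratin median was 38.3 CPM with 38 of 54 columns at 10 CPM, and the simple-keratin median 0.267 CPM with 23 of 66. Vegfa was therefore highest where Slc2a1, Pdk1 and Slc16a1 were lowest, 3.03-fold higher in the collagen than in the simple-keratin columns. Bnip3, a mitochondrial protein that promotes the removal of mitochondria, had medians of 50.8, 49.5 and 37.9 CPM. Ndrg1, a stress-responsive gene of differentiating cells, had medians of 0.703, 7.67 and 0.403 CPM and summed levels of 38.4, 80.95 and 19.8 CPM. Its simple-keratin log2 ratio of 1.06 was 0.85 without the labelled columns and 0.98 with near copies added, inside 2-fold in both. Ankrd37, a small ankyrin-repeat protein raised by HIF, was rare, with a highest value of 32.4 CPM and 10 CPM in 10, 11 and 8 columns. The targets did not move as a block between states.

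In the summed K17 high cells Egln1, Egln3, Ankrd37 and Ndrg1 were lower than in the basal layer past 2-fold. With the median of the cells, Egln3, Ankrd37 and Ndrg1 lay inside 2-fold. Egln3 was 16.1 and 22.6 CPM in single basal-layer cells and at most 0.254 CPM in the others. The basal-layer medians of Ankrd37 and Ndrg1 were 0.116 and 1.42 CPM. Pdk1, Bnip3 and Vegfa lay within 2-fold in the sums (log2 -0.97, -0.93 and 0.96). These 3 depend on single cells too, since without K17 high cell 1 Bnip3 was at -5.00 and Vegfa at 1.23, without cell 4 Vegfa was at 1.31 and Pdk1 at -1.003, and without cell 3 Pdk1 was at -1.37. Bnip3 was 97.98 CPM in K17 high cell 1 and 0.570, 0.223 and 0.6303 CPM in the others, against 0 to 176 CPM in the basal layer with a median of 40.7 CPM. Ndrg1 was 19.7 CPM in K17 high cell 1 and 0.285, 0.556 and 0.315 CPM in the others, and up to 125 CPM in the basal layer. Vegfa was 14.9, 76.4, 79.7 and 0 CPM, and 0 to 68.3 CPM in the basal layer. In each case the labels overlap. Summed over Pdk1, Bnip3, Vegfa, Egln1, Egln3, Ankrd37 and Ndrg1, the 7 hypoxia targets ran from 145 to 434 CPM in the basal layer with a median of 319.8 CPM. The K17 high cells held 180.2, 165.3, 219 and 109.8 CPM. The intermediate cell held 255 CPM, of which Pdk1 alone gave 249 CPM.

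Across states the sum of the 7 targets had medians of 411, 401 and 242 CPM, and the sum of 17 glycolytic enzymes 13009, 11006 and 6027 CPM. Pdk1 weighs heavily in the target sum. In the summed columns it stood at 254, 216 and 73.9 CPM, the largest of the 7 in the basal-keratin and simple-keratin states. Vegfa stood at 53.6, 27.7 and 83.8 CPM, so the target sum is no even score of the 7 genes. Within the basal-keratin state the rank correlation of the target sum with the enzyme sum was 0.57 over 54 columns. It was 0.33 over 66 simple-keratin columns and -0.07 over 79 collagen columns. These describe columns of an unknown mix of embryos, and the enzyme sum itself had rank correlations of 0.07, 0.32 and 0.21 with column depth. The basal-keratin columns also mix labelled cells of WT01 with 39 columns of no label. Median target and enzyme sums were 320 and 9258 CPM in the basal-layer cells and 173 and 9295 CPM in the K17 high cells. In the columns of no label they were 463 and 14251 CPM. The 0.57 spans this difference and was not computed without the labelled cells. Among single members with a median of at least 10 CPM, the closest pairs in the basal-keratin state were Aldoa with Ldha at 0.77, Tpi1 with Ldha at 0.71 and Pfkl with Ldha at 0.71. In the simple-keratin state Pgk1 with Pkm came first at 0.74, and in the collagen state Pgk1 with Eno1 at 0.52. At least 0.5 was reached by 27 of 253 pairs in the basal-keratin, 21 of 253 in the simple-keratin and 2 of 231 in the collagen state. The median over these 253, 253 and 231 pairs was 0.15, 0.17 and 0.07, and the difference between states was not tested. Isoform partners over the basal-keratin columns stood at -0.07 for Slc2a1 and Slc2a3, -0.02 for Hk1 and Hk2, 0.15 for Pfkl and Pfkm, 0.09 for Ldha and Ldhb and 0.16 for Slc16a1 and Slc16a3. The highest of these partners in the simple-keratin columns was Slc2a1 with Slc2a3 at 0.36.

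**Figure D5:**
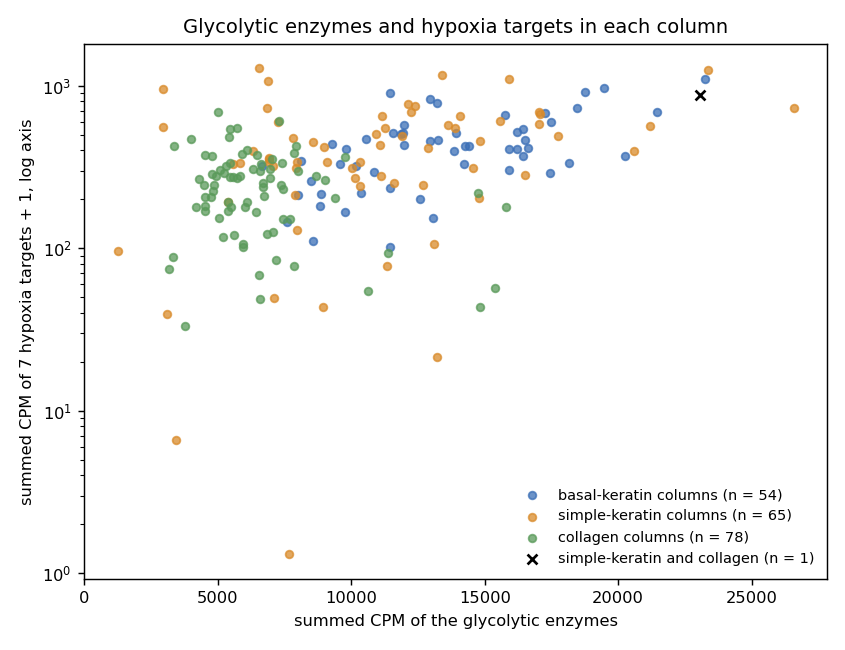
Summed CPM of 7 hypoxia targets (1 added, log axis) against summed CPM of 17 glycolytic enzymes in each column, coloured by state, with the 1 column of 2 states as a cross. The rank correlation is 0.57 in the basal-keratin, 0.33 in the simple-keratin and -0.07 in the collagen columns. Pdk1 is the largest of the summed targets in the keratin states, and the basal-keratin columns include the labelled basal-layer and K17 high cells.

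Counted over all members, the K17 high cells had 2 members higher than the basal layer past 2-fold, where 15.5% of 14585 genes were, and 8 lower, where 22.1% were. Hk1 and Slc16a3 were higher. Each of these calls rests on 1 cell, since the log2 ratio of Hk1 was 0.57 without K17 high cell 4 and that of Slc16a3 0.21 without K17 high cell 3. Slc2a3, Hk2, Pfkfb3, Aldoc, Egln1, Egln3, Ankrd37 and Ndrg1 were lower. Of these, Aldoc, Egln3, Ankrd37 and Ndrg1 lay inside 2-fold with the median of the cells in place of the sum. Hk2 lay inside 2-fold without K17 high cell 3 (-0.99), and Egln1 without cell 2 (-0.96) or without cell 3 (-0.85). The median log2 ratio was -0.20, against -0.09 for all genes, and the share lower, 22.9%, is near that of all genes. Without K17 high cell 1 there were 4 higher members, and without K17 high cell 3 the median was -0.32. The intermediate cell had 0 members higher, where 14.4% of 14347 genes were, and 18 lower, where 48.4% were. Its median log2 ratio was -1.10, against -0.88 for all genes, and with size factors -0.89 against -0.69. The median gene of this 1 cell thus lay low beside the summed basal layer, and the median member a little lower still. With the median of the cells the members' median was -0.24, and 5 of the 18 calls lay inside 2-fold. Among members with at least 10 CPM the members' median was -0.77. Slc2a3, Aldoc, Eno2, Slc16a3, Vegfa, Egln1, Egln3 and Ndrg1 had no count in the intermediate cell, and Hk1, Hk2 and Bnip3 had 2 counts each. Against its 3-count limit Vegfa was at least 63.98-fold and Ndrg1 at least 71.6-fold higher over the basal-layer group. The Ndrg1 fold rests on part of the cells, since the median basal-layer cell held 1.42 CPM, against a limit of 0.364 CPM.

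Lists of related genes were read in the same way, with calls past 2-fold in simple-keratin against basal-keratin, collagen against basal-keratin and collagen against simple-keratin columns in turn. Of all genes that reached 1 CPM 17.8, 18.5 and 17.7% were higher and 12.1, 18.2 and 23.3% lower in these comparisons. Of 17 further glycolysis genes, of which 11, 12 and 10 reached 1 CPM, 3, 2 and 1 were higher and 3, 3 and 4 lower. Tigar, whose product removes the activator that Pfkfb3 makes, and Pfkfb2 were higher in the simple-keratin columns (log2 2.61 and 1.42), and Pfkfb1 was lower (-1.66). In the collagen columns Eno3 and Pfkfb4 were higher than in the basal-keratin state (1.37 and 1.26), and Bpgm was lower than in the simple-keratin state (-1.14). Of 8 genes of pyruvate dehydrogenase and its control, 1, 0 and 1 were higher and 0, 1 and 2 lower. Pdk2, a kinase like Pdk1, was the gene higher in the summed simple-keratin columns (1.32). Its median column did not go that way, at 0.433 CPM against 0.621 CPM in the basal-keratin columns. Against the simple-keratin columns, Pdp1 was higher and Dlat lower in the collagen columns (1.49 and -1.17). Of 3 genes of monocarboxylate transport, of which 2 reached 1 CPM in each comparison, none was higher and 2, 1 and 1 were lower. Emb, a chaperone of such carriers, fell from 71.1 CPM in the basal-keratin to 19.4 CPM in the simple-keratin and 1.20 CPM in the collagen columns, in contrast to Bsg.

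The same shares of all genes that reached 1 CPM, 17.8, 18.5 and 17.7% higher and 12.1, 18.2 and 23.3% lower, stand beside the lists that follow. Of 7 genes of the pentose phosphate pathway none was higher, and 0, 2 and 2 were lower, Rpe in both collagen comparisons (-1.11 and -1.47) and Taldo1 against the simple-keratin columns (-1.15). Of 18 genes of the citric acid cycle none was higher and 1, 2 and 0 were lower, with medians of -0.11, -0.42 and -0.20. Suclg2 was lower in the simple-keratin columns (-1.28), and Suclg2 and Cs were lower in the collagen columns (-1.38 and -1.02) than in the basal-keratin state. Of 8 HIF regulators, of which 8, 7 and 8 reached 1 CPM, 2, 1 and 1 were higher and 1, 1 and 2 lower. Cited2, which competes with HIF for its coactivator, was higher in the simple-keratin columns (1.52) and lower in the collagen columns (-1.32) than in the basal-keratin state. Of 26 further hypoxia targets, a list that shares Slc16a3 with the members and of which 24, 25 and 24 reached 1 CPM, 3, 8 and 8 were higher and 7, 8 and 5 lower. Lox and Plod1, enzymes that modify collagen, were higher in the collagen columns (log2 9.68 and 4.39 against basal-keratin), and so was Pgf, a relative of Vegfa (3.93). Car12, Tfrc and Ak4 were lower there (-5.44, -2.43 and -2.40). P4ha2, another collagen enzyme, was higher in the collagen than in the simple-keratin columns (4.85), and Bhlhe40 and Mxi1 were lower (-1.96 and -1.93). Car12, Anln and P4ha2 were lower in the simple-keratin than in the basal-keratin columns (-4.99, -2.84 and -2.52). In the labelled cells, where 21 of the 26 reached 1 CPM, 9 were higher and 3 lower in K17 high than in basal-layer cells, against 15.5% higher and 22.1% lower of all genes that reached it. These targets split by state in both directions, with Lox and Plod1 high in the collagen columns and Tfrc and Car12 low. Among the members Slc2a1 and Slc16a1 were low there. Vegfa was past 2-fold there only against the simple-keratin columns, except with size factors, which put it at 1.04 against the basal-keratin columns.

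Marker sums moved with the states as well. Of 6 handling-stress genes, Fos, Jun, Egr1, Atf3, Hspa1a and Hspa1b, all 6 were above 10 CPM in each state, with sums of 11159.9, 8404 and 3961 CPM in the basal-keratin, simple-keratin and collagen columns. The median columns held 3609, 6888 and 2981 CPM, so by the median the simple-keratin state was the highest. Egr1 led at 3555 and 1984 CPM in the first and last, and Fos at 3309.9 CPM in the simple-keratin columns. Within the labelled cells the sum was 2704 CPM in the basal layer, 1249.6 in the K17 high cells and 8786 CPM in the intermediate cell. The 7 dividing-cell genes summed to 2647, 909.5 and 1536 CPM across the states and to 1910.1, 4585 and 142 CPM across the labels, with Ccnb1 leading in the basal-keratin columns at 615 CPM. Their part in the members' levels was not tested.

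Erythroid genes summed to 27.98, 16257 and 1.78 CPM, led in the simple-keratin columns by Hba-a1 at 7506 CPM. Nearly all of it lay in 1 simple-keratin column, in which 4 erythroid genes took 596577 CPM of 15337576 counts and all 35 members 5085 CPM. Without it the median log2 ratio of members between simple-keratin and basal-keratin columns was 0.14, with 6 members higher and 1 lower, Egln1 then lying inside 2-fold at -0.97. Mesenchymal genes, 9 in all, summed to 723 CPM in the basal-keratin and 1520.2 CPM in the simple-keratin columns, led by Dcn at 686 and 965 CPM, against 72919 CPM in the collagen columns. Simple-epithelium genes (6) summed to 840.4, 6325 and 19.5 CPM and basal-keratinocyte genes (7) to 15441, 1158 and 31.1 CPM. The state rules set these sums in part only, through Krt8 and Krt18 in the first list and Krt5 and Krt14 in the second. In the simple-keratin columns the second list was led by Krt15 at 882 CPM and Trp63 at 197 CPM. In the basal-keratin columns the first list was led by Cdh1 at 403 CPM and Epcam at 390 CPM. Suprabasal genes (5) stood at 356, 125 and 7.82 CPM, and at 31272 CPM in the intermediate cell, led by Krt10. Periderm genes (4) stood at 661, 49.05 and 0.07096 CPM. The first sum is nearly all Krt17, at 638 CPM, which stood at 2923 CPM in the labelled K17 high cells. The other genes did not go one way between basal-keratin and simple-keratin columns. Sprr1a was at 20.7 and 0.624 CPM, Krt6a at 1.43 and 1.55 CPM and Krt4 at 0.636 and 32.7 CPM.

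Low sums were found for immune genes (24.5, 1.45 and 3.78 CPM, led by Cd74 in the first, with Ptprc at 0 in each state) and endothelial genes (0.783, 6.57 and 30.5 CPM, led by Tek in the collagen columns). By label the immune genes stood at 37.3 CPM in the basal layer, 139 CPM in the K17 high cells, led by Cd74 at 139 CPM, and 3.52 CPM in the intermediate cell. Melanocyte genes stood at 9.21, 7.44 and 8.49 CPM, led by Mitf in the collagen columns, and the 2 Merkel-cell genes at 0.497, 2.503 and 0 CPM. Muscle genes reached 135 CPM in the collagen columns, led by Des at 60.01 CPM, against 1.25 and 0.744 CPM in the keratin states. What these cells add to the members' levels was not tested.

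No difference was tested, because the 16 labelled cells come from 1 embryo and the other columns carry no embryo. State, genotype and preparation cannot be told apart in the pool, since wild-type epidermis went through dispase before trypsin and knockout fetuses through trypsin directly.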

How the data were processed

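Single cells sorted as negative for propidium iodide, CD45, TER119 and CD140a were amplified with SMART-Seq HT and made into libraries (Nextera XT) by the authors, who screened cDNA by qPCR with Gapdh as reference (Krt5 for wild type, Krt8 for knockout, Pdgfra absent). Wild-type epidermis was treated with dispase and then trypsin, knockout fetuses with trypsin. The deposited table holds an estimated count per gene and run, made by the authors with Trimmomatic, HISAT2 and the mm10 genome. Of its nonzero values 23.2% are fractions, and counts were rounded. No sample map at hand pairs 221 of 237 columns with a cell.

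Members and lists were chosen with earlier results of these data known. Every member is named, and from each related list at most 3 genes up and 3 down past 2-fold with 10 CPM in a state. Counts were summed per group, divided by summed totals and compared as log2 ratios with 1 CPM added. Intervals are exact Poisson or binomial. No test was made. Near copies were found by shared runs of 50 bases. Python 3.11.15, pandas 2.3.3, scipy 1.17.1 and matplotlib 3.10.9 were used; the steps were tested on simulated data. Alternatives were means or medians of cells, a pseudocount of 0.1, 10 CPM, other scales (DESeq2-type size factors), fractional counts, other column choices, leaving out cells, and 3 chosen after seeing the data: near copies added, highest columns left out, the haemoglobin-rich column left out.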

Additional observations from a re-analysis of the deposited data

Results flagged for a closer look

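Among the 4 WT K17 high cells, 8 of 35 members had 1 cell set apart above the other 3, judged by its gap as a part of the range. Chance gives such a gap in about 1 in 20 groups of 4 if values are normally spread. In cell 1, Bnip3 was 97.98 CPM against 0.223 to 0.630 CPM in the others. Ndrg1 was 19.7 CPM there against 0.285 to 0.556 CPM. Pfkfb3 was 6.12 CPM there against 0 in each other cell, and Ankrd37 was 1.17 CPM against 0 to 0.142 CPM. In cell 2, Eno2 was 43.6 CPM against 0 to 0.315 CPM, and Egln3 was 0.285 CPM against 0. In cell 3, Eno1 was 2248 CPM against 1284 to 1444 CPM. In cell 4, Slc2a3 was 0.315 CPM against 0. Slc2a3, Egln3 and Ankrd37 rest on few counts. With the other cells at or near 0, detection in 1 cell is enough to stand apart. The 1 in 20 thus applies to none of these members but Eno1, whose other cells held 1284 to 1444 CPM. Cell 1 was the high cell for Bnip3, Ndrg1, Pfkfb3 and Ankrd37 while the 7 hypoxia targets summed to 180.2 CPM in it against 165.3, 219 and 109.8 CPM in cells 2, 3 and 4. The cause was not tested.

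The 39 columns that met no state rule enter no comparison between states, and only the labelled intermediate cell among them enters one by label. These 39 columns held the members too, with a median of 14610.6 CPM over all 35 and a range of 934 to 24976 CPM. That median lies between those of the basal-keratin and collagen columns.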

How the results depend on the processing

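Between simple-keratin and basal-keratin columns the median log2 ratio of members was 0.10 and ran from -0.12 to 0.32 over 14 alternatives. It reversed with the median of the cells' CPM (-0.12) and without the labelled columns (-0.036). The number of members lower past 2-fold was 2 and became 8 with the median of the cells, and 1 with the mean of the cells, with size factors, with the state minimums doubled and maximums halved, and without the haemoglobin-rich column, an alternative chosen after seeing the data. The number of members higher was 6 and ran from 4 to 6. The cause was not tested.

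Between collagen and basal-keratin columns the median of members was -0.74 and ran from -0.80 to -0.36 over 13 alternatives, negative in each. Size factors changed the number higher from 3 to 5 and the number lower from 11 to 6, on a scale that moves the median of all genes from -0.21 to 0.16. Over all alternatives the number of members higher ran from 2 to 5 and the number lower from 6 to 15, with 15 without the labelled columns. Between collagen and simple-keratin columns the median of members was -0.59 and ran from -0.75 to -0.39 over 14 alternatives, negative in each. The number of members higher was 2 and became 5 with the median of the cells. The number lower was 12 and ran from 10 to 13. The cause was not tested.

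Between K17 high and basal-layer cells the median of members was -0.20. It was -0.026 with the median of the cells, -0.40 without the highest column of each group (chosen after seeing the data), and -0.32 to -0.16 with each K17 high cell left out in turn. The number of members higher was 2, became 1 without the highest column of each group, and ran from 2 to 4 with each K17 high cell left out. It was 4 without K17 high cell 1. The number lower was 8 and ran from 6 to 11. The cause was not tested.

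For the intermediate cell the median of members was -1.10, and -0.24 with the median of the cells, and the cause was not tested. It was -0.77 among members with at least 10 CPM. The number of members higher was 0, and 3 with the median of the cells and 1 with size factors, where 17.4% of all genes were higher. The log2 ratio of Hk1 reversed from -2.62 to 0.31 with the median of the cells, where Hk1 had a count in 3 of 11 basal-layer cells. Leaving out cells was not possible for a group of 1.

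The share of Slc2a1 in the reads of Slc2a1 and Slc2a3 in simple-keratin columns was 46.5% in the sum and 79.8% as the median over cells. A minimum of 1000000 counts and 3000 genes per column changed nothing, as each column passes it. How far depth limits the detection of rare members such as Eno2 was not tested.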
